A study of Sus scrofa with 45 samples.

Results

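The genes described here encode the subunits of the mitochondrial respiratory chain and of ATP synthase, as far as the array annotation names them. A probe was taken as a member when it was no control probe and its gene name began with NDUF, COX, UQCR, SDH or ATP5. It was also taken when its description contained, in any case, ATP synthase, cytochrome c oxidase, NADH dehydrogenase or ubiquinol-cytochrome. This rule selected 186 of the 43603 probes of the array. The annotation did not bear out the name for most of them: 121 of the 186 probes carried only a partial match of an unnamed transcript to such a protein, with a median match of 7% (range 3% to 25%). These 121 are called partial-match probes and are counted apart. A subunit was named for 59 probes of 37 genes: 13 probes (10 genes) for complex I, 5 (3 genes) for complex II, 2 (2 genes) for complex III, 16 (8 genes) for complex IV, 18 (9 genes) for ATP synthase and 5 (5 genes) for subunits encoded by mitochondrial DNA. Of the other 6 probes, 2 represented the complex IV assembly factors COX11 and COX15. The remaining 4 represented ATP6V1C1, ATP6V1E1 and ATP6V1G1, which are parts of the vacuolar ATPase, a proton pump of vesicles and not of the respiratory chain. Among the 59 named probes, those of ND2 and COX6B2 also rest on a match within the range of the partial-match probes.

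The arrays were read in 1 colour and measured RNA in the blood of male miniature pigs (Sus scrofa). The pigs received a control diet, a diet high in fat and cholesterol (HFCD), or such a diet that was also high in sucrose (HFCSD). Whole blood (WB), kept in PAXgene tubes, was studied after 10, 19 and 27 weeks on the diets, and white blood cells (WBC), caught on LeukoLock filters, at week 27. Each of the 12 groups had 4 arrays, except HFCSD in WB at 19 weeks and HFCD and HFCSD in WB at 27 weeks, which had 3. The labels do not say which pig a replicate number stands for, so the p-values measure the spread between arrays. The same pigs were sampled over the weeks and for both sample types, so comparisons of weeks and of WBC with WB reuse animals without pairing them. Between 35.4% and 53.3% of an array's spots gave signal well above background (median 43.9%). Levels are log2 intensities after quantile normalization over the 45 arrays. A probe was called in a comparison when its p from limma, adjusted by the method of Benjamini and Hochberg over all probes tested, was under 0.05.

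The respiratory chain passes electrons from NADH (complex I) and succinate (complex II) through complex III to oxygen at complex IV. ATP synthase uses the proton gradient built by this transport to make ATP. Most subunits are encoded in the nucleus and a few core subunits in mitochondrial DNA. In blood, mature red blood cells have lost their mitochondria, whereas lymphocytes, monocytes and platelets keep them and neutrophils hold few. From array levels alone, in samples of mixed cells such as these, fewer cells of a type and less RNA per cell cannot be told apart. The paper also gives white blood cell counts and shares of cell types for each diet and week. At the weeks described here it reports no significant difference between the diets in any of them.

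Named subunits were readily measured. Of the 59 subunit probes, 41 (69.5%) were well above background on every array and 9 on no array, against 12148 (27.9%) and 13606 (31.2%) of all 43603 probes. Of the 121 partial-match probes, 26 (21.5%) were well above background on every array and 45 (37.2%) on none. The 9 subunit probes on no array represented NDUFS1 and NDUFB9 of complex I, UQCR10 of complex III, the mitochondrial ATP6 and COX2, and 1 probe each of NDUFB4, NDUFB6, ATP5C1 and ATP5J2, genes that each had another probe; the other probes of NDUFB4, NDUFB6 and ATP5C1 were above background on every array. The median share of A and T was 61.7% in subunit probes and in partial-match probes and 60.0% in all probes.

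The 41 subunit probes that were above background on every array had group means from 4.79 to 15.31 on the log2 scale. The range of a probe's 12 group means was 0.43 to 3.18 (median 1.15), while the SD within groups had a median of 0.28. The median log2 level of these 41 probes was 10.95, 10.47, 10.79 and 10.67 on the control WB arrays of week 10, 11.51, 11.49, 11.64 and 11.65 on those of week 19, and 11.39 ± 0.29 (SD, n = 4) at week 27. The control arrays of week 10 thus lay below all control arrays of the later weeks. With HFCD the arrays of week 10 lay at 10.84 to 11.02, below those of week 19 (11.13 to 11.92) and of week 27 (11.31 to 11.51). With HFCSD the median was 11.08 ± 0.27 (SD, n = 4) at week 10, 10.95, 11.38 and 11.90 at week 19 and 10.92, 11.14 and 11.36 at week 27, and the HFCSD groups overlapped. In WBC it was 11.20, 11.49, 11.67 and 11.59 with the control diet, 11.74, 11.58, 11.78 and 11.79 with HFCD and 11.69, 11.57, 11.95 and 11.88 with HFCSD. Of the 41 probes, 25 had their lowest group mean in a group of week 10, and WBC with HFCSD was most often the highest group (8 probes).

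The first question was how the subunits changed in whole blood over the feeding period. In control pigs, 7 subunit probes rose between weeks 10 and 27, among them those of COX6C, COX7C1 and COX7A2 of complex IV (4 of 15 probes tested) and NDUFC1 of complex I (1 of 8), and 1 probe of SDHA of complex II fell. COX6C, a small nuclear subunit of complex IV, had log2 levels of 12.01, 10.63, 10.88 and 10.18 at week 10 and of 12.57, 11.57, 13.19 and 13.53 at week 27 (probe A_72_P122981). One array of week 10 reached into the range of week 27. The change was 1.79 (SE 0.36; adjusted p = 0.000896), and the other COX6C probe, which shares 51 bases with it, changed by 1.78. COX7C1, now named COX7C and also a small subunit of complex IV, rose by 1.72 (adjusted p = 0.00259), from 10.03, 8.93, 9.01 and 8.41 to 10.09, 9.63, 11.56 and 11.98. Its highest array of week 10 lay above 1 array of week 27. Only 1 of the 2 COX7C1 probes, which share 6 bases, was called. NDUFC1, an accessory subunit of complex I, had levels of 8.33, 7.76, 7.73 and 7.28 at week 10 and of 8.97, 8.77, 9.22 and 9.82 at week 27. These groups did not overlap, and the rise was 1.42 (SE 0.27; adjusted p = 0.000613).

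SDHA encodes the catalytic flavoprotein of complex II, which is also an enzyme of the citric acid cycle. Its probe A_72_P161336 read 7.02, 7.41, 6.76 and 7.45 at week 10 and 4.60, 4.97, 4.64 and 4.96 at week 27 in control WB. All arrays of week 27 lay below all arrays of week 10, and the level fell by 2.37 on the log2 scale (SE 0.43; adjusted p = 0.000409). The second SDHA probe, which shares 5 bases with the first, was at 9.88 ± 0.12 (SD, n = 4) and 9.30 ± 0.47 (SD, n = 4) and was not called. Other members that rose in control pigs were COX15, which makes the heme A of complex IV (1.72; adjusted p = 0.00164), COX7A2, the isoform of complex IV outside muscle (0.79; adjusted p = 0.0201), ATP5S, which couples the parts of ATP synthase (probe A_72_P310968, 0.87; adjusted p = 0.0231), and the mitochondrially encoded complex I subunit ND6 (0.71; adjusted p = 0.0342). COX15 was above background on 1 of 4 arrays at week 10 and on 4 of 4 at week 27. ATP5S was not called without replicate 2 (adjusted p = 0.0536) or 4 (0.0585) of week 10 or replicate 4 of week 27 (0.0683), and COX7A2 not without replicate 3 of week 10 (0.065) or replicate 3 (0.0601) or 4 (0.0901) of week 27. ND6 was called in only 2 of the 8 fits with 1 array left out. It was also not called without a filter on dim probes (adjusted p = 0.0637) or with a covariate for each array's percentage of bright spots, those well above background (0.131), and ATP5S not with normexp (0.057).

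Counted together, 18 members rose and 3 fell in control WB out of 97 tested, beside 20.7% of all 17140 probes tested (12.2% higher and 8.52% lower). Of 45 subunit probes tested, 7 rose and 1 fell (17.8%). The median log2 change was 0.23 for subunit probes, of which 38 had a positive and 7 a negative change, and 0.24 for all members, against 0.08 for all probes. By complex the medians were 0.39 for complex I (8 probes), -0.30 for complex II (5), 0.47 for complex IV (15), 0.25 for ATP synthase (14) and 0.39 for the mitochondrially encoded probes (2). The only complex III probe tested, UQCRC1, a core subunit, changed by -0.36. These signs were the same with each array scaled by its 75th percentile, with background correction by the normexp model and in the deposited series table, but the sizes moved. With the 75th percentile the median was 0.36 for subunit probes, 0.14 for all probes, -0.14 for complex II and -0.23 for UQCRC1, and with normexp it was 0.15 for subunit probes, 0.14 for all members and 0.13 for ATP synthase. All these medians and counts take each probe singly. Within COX6C, COX7A1, COX8H, ATP5I and ATP5G2 the probes of a gene share 31 to 51 bases and are no independent measures.

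With HFCD, 3 members rose and 4 fell between weeks 10 and 27 out of 98 tested, beside 5.6% of 18862 probes (1.71% higher and 3.9% lower). NDUFC1 read 8.09, 8.06, 7.73 and 7.98 at week 10 and 9.34, 9.0 and 9.19 at week 27, a rise of 1.21 (adjusted p = 0.0141). ATP5S rose by 1.09 (adjusted p = 0.0257), from 5.36 ± 0.17 (SD, n = 4) to 6.45 ± 0.19 (SD, n = 3), and SDHA (A_72_P161336) fell by 1.74 on the log2 scale (adjusted p = 0.0265), from 6.85, 7.06, 7.39 and 7.35 to 4.94, 6.30 and 5.02. The arrays of the weeks did not overlap for any of the 3 probes. Only 1 of the 2 SDHA probes was called. The count of 7 called members went to 4, 1 and 2 without replicate 1, 3 or 4 of week 10, and to 0, 4 and 0 without replicate 1, 2 or 3 of week 27. The share of all probes in these fits is not given, so the counts cannot set the members apart from the array. NDUFC1 was not called without replicate 1 (adjusted p = 0.0557) or 3 (0.0704) of week 27, and SDHA not without replicate 3 (0.0686) or 4 (0.0718) of week 10 or replicate 1 (0.11) or 3 (0.148) of week 27. ATP5S was not called in 5 of the 7 such fits. SDHA was also not called without the filter on dim probes (0.0564), and ATP5S not with normexp (0.075).

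With HFCSD, 5 members rose and 2 fell out of 89 tested, beside 10.3% of 16461 probes (3.66% higher and 6.68% lower), and all 5 that rose were subunits. ATP5S had levels of 5.43, 5.75, 5.22 and 5.26 at week 10 and of 7.15, 6.44 and 6.85 at week 27. These did not overlap, and the rise of 1.40 (SE 0.29; adjusted p = 0.00337) held its call with any array left out. ATP5S has 2 probes, which share 7 bases, and only 1 of them was called in each of the 3 diets. ATP5I, the e subunit in the membrane part of ATP synthase, rose by 0.96 (A_72_P343573; adjusted p = 0.031), NDUFC1 by 0.95 (adjusted p = 0.0375), COX6B, a subunit at the contact of complex IV dimers, by 0.81 (A_72_P260567; adjusted p = 0.0303) and COX7A1, the muscle isoform of COX7A, by 0.74 (A_72_P143556; adjusted p = 0.0372). The 2 other ATP5I probes share 50 and 51 bases with the one called and were not called. Nor were the other COX6B probes (A_72_P211467, 0.25, and A_72_P303339, -0.18) and COX7A1 probes (A_72_P245162, 0.81, and A_72_P303109, 0.51), so that each of these genes had 1 of 3 probes called. ATP5I and COX6B were not called in 4 of the 7 fits with 1 array left out, and COX7A1 and NDUFC1 not in 6. ATP5I, NDUFC1 and COX7A1 were not called without the filter on dim probes (adjusted p = 0.0531, 0.0629 and 0.0584) or with the covariate for bright spots (0.0797, 0.0599 and 0.0691), and COX6B not with the covariate (0.0747). With the 75th percentile NDUFC1 (0.0558) and COX7A1 (0.0561) were not called, nor NDUFC1 with the slide as a block (0.0526). The count of 7 went to 2 without replicate 3 or 4 of week 10, and to 3 and 2 without replicate 1 or 2 of week 27. With the replicate number as a block it was 3. These counts also stand without the share of all probes, and cannot set the members apart from the array.

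Across the diets, the complexes had medians of like sign. The median change between weeks 10 and 27 was 0.46 for complex I, -0.32 for complex II, 0.28 for complex IV and 0.44 for ATP synthase with HFCD, and 0.53, -0.34, 0.51 and 0.71 with HFCSD. The sign of these 8 medians was the same under each scaling tried. UQCRC1 changed by -0.41 with HFCD and by -0.16 with HFCSD, the former being -0.26 and the latter turning to 0.16 with the 75th percentile. With normexp the HFCSD median of complex IV was 0.27. Over all subunit probes the median was 0.28 with HFCD (45 tested) and 0.45 with HFCSD (44 tested; 0.24 with normexp), against 0.01 and -0.05 for all probes. The 3 comparisons have no arrays in common, but all WB arrays of week 10 were scanned on 1 day and all those of week 27 on another. The pigs were also older at week 27. Time on the diet, age and scan day therefore cannot be told apart. The difference between a diet's change and that of the control diet was called by limma for 0 of 100 members with HFCD and for 0 of 99 with HFCSD, beside 0% of 19141 and 0% of 17898 probes. At an unadjusted p under 0.05 there were 4 and 11 members, beside 2.72% and 14.9% of all probes.

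Other mitochondrial genes were looked at over the same period. A list of 26 genes (49 probes) of the citric acid cycle, fatty acid oxidation, mitochondrial carriers and regulators had 1 probe that rose and 17 that fell of 39 tested in control WB, with a median of -0.72. With HFCD 0 rose and 9 fell of 41 (median -0.54), and with HFCSD 0 rose and 8 fell of 39 (median -0.45). Most list probes were thus not called, and 8, 12 and 11 of those tested had a positive change. Of 3 probes of HADHA, an enzyme of fatty acid oxidation, 2, 2 and 1 fell, whereas the brightest (A_72_P393208) changed by -0.27, -0.38 and -0.24 and was not called. VDAC2, a channel of the outer mitochondrial membrane, fell on the log2 scale by 1.78 in control pigs (A_72_P431284; adjusted p = 2.71e-05), by 1.69 with HFCD and by 1.57 with HFCSD. Its brighter probe (A_72_P223492) changed by -1.14, -0.80 and -0.84 and was not called with HFCD. SUCLG1, an enzyme of the citric acid cycle like SDHA, fell by 1.74 (adjusted p = 4.97e-05), by 1.49 and by 1.16. The only list probe that rose was 1 of CPT1A, which brings fatty acids into mitochondria (A_72_P403023, 1.23 in control pigs, adjusted p = 0.0182; not called with HFCD or HFCSD). The list's most abundant gene was ATPIF1, the inhibitor of ATP synthase.

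Markers of blood cells moved over the same weeks. Of 13 T cell probes (7 genes), 5 of 11 tested fell in control pigs, among them CD3E by 2.12 and CD2 by 1.69 on the log2 scale (A_72_P178131), 3 of 12 fell with HFCD and 2 of 11 with HFCSD, and 0 rose. The other CD2 probe changed by -0.33 in control pigs and was not called, and 3 of the 11 probes had a positive change there that was not called: CD8A (0.63; unadjusted p = 0.0321), CD3G (A_72_P354513, 0.43) and the brightest CD3D probe (A_72_P014531, 0.22). The summed level of the T cell probes, of which CD3D was the most abundant, was 9785, 7158, 9343 and 7982 at week 10 and 7177, 7350, 8793 and 7238 at week 27 in control WB. With HFCD the sums were 11100, 7740, 8916 and 9220 and then 8198, 5328 and 8268, and with HFCSD 9027, 6502, 9754 and 8718 and then 5540, 6290 and 8047. Of 3 neutrophil probes, the most abundant, FCGR3B, rose by 0.68 in control pigs, and none was called with HFCD or HFCSD. The erythroid (2 probes tested), platelet (5) and monocyte lists had 0 calls by limma in these 3 comparisons. The part of these markers in the changes of the subunits was not tested.

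The second question was how the diets differed within a week. At week 10, limma called 0 of 96 members for HFCD against control, beside 0.0281% of 17767 probes, and 0 of 88 for HFCSD against control, beside 0.0123% of 16198. At an unadjusted p under 0.05 there were 10 and 2 members, beside 10% and 1.73% of all probes, and the methods' t-test with a fold of over 2 gave 2 and 0 (306 and 22 of all probes). The lowest p for HFCD was that of COX8H, the muscle isoform of COX8 in complex IV. Its probe A_72_P393483 read 4.49, 4.26, 4.64 and 4.86 with HFCD, 6.26, 5.64, 5.94 and 5.82 with the control diet and 5.72, 6.71, 5.25 and 5.41 with HFCSD. All HFCD arrays lay below all others, with a difference from control of -1.35 that was not called (adjusted p = 0.216). The platelet probes, 5 of 5 above background on every array, had summed levels of 15580, 14430, 16790 and 15390 on these HFCD arrays, against 20030, 30540, 28530 and 31770 with the control diet and 20450, 35980, 17690 and 31440 with HFCSD. The 2 erythroid probes of HBE1 differed by -1.16 and -1.39 between HFCD and control (unadjusted p = 0.0216 and 0.00925 in limma) and were not called. Erythroid sums were 11050, 41510, 18840 and 7442 with HFCD, against 48680, 43140, 28310 and 36050 with the control diet. Of the spots, 43.1% to 53.3% were well above background on the HFCD arrays and 35.4% to 43.4% on the control arrays. The part of these differences was not tested. For HFCSD, COX7C1 was at 9.77 ± 0.33 (SD, n = 4) against 9.09 ± 0.68 (SD, n = 4) in control (unadjusted p = 0.0383 in limma; adjusted p = 1). HFCSD against HFCD gave 0 of 95 members, beside 0% of 17917 probes, 7 at an unadjusted p under 0.05 (4.95% of all probes) and 1 by the methods' t-test (107 of all probes). There COX8H differed by 1.21 (adjusted p = 0.67) and COX11, which supplies copper to complex IV, by 0.81 (adjusted p = 0.809). The median member change was 0.02 for HFCD, -0.03 for HFCSD and -0.07 between the diets, against 0.09, -0.01 and -0.10 for all probes. Within the 3 slides that held these groups the member medians were -0.15, 0.05 and 0.11 for HFCD and -0.18, 0.08 and 0.01 for HFCSD. Those of all probes were 0.02, 0.08 and 0.19 for HFCD and -0.02, 0.10 and 0.03 for HFCSD.

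At week 19, limma called 0 of 94 members for HFCD, beside 0.0181% of 16615 probes, and 0 of 96 for HFCSD, beside 0.0175% of 17178, with 12 and 8 members at an unadjusted p under 0.05 (12.5% and 11.9% of all probes) and 2 and 2 by the methods' t-test (548 and 886 of all probes). The median difference from control of the ATP synthase probes was 0.39 with HFCD (13 tested) and 0.43 with HFCSD, positive under each scaling tried. With the scan day as a term it was 0.21 and 0.39. Without that term, complexes I, II and IV had medians of -0.03, 0.21 and 0.01 with HFCD and 0.17, 0.16 and 0.14 with HFCSD. The mitochondrially encoded probes had medians of -0.35 and -0.19. UQCRC1, the only complex III probe tested, differed by 0.45 and 0.225. Over all subunit probes the HFCD median was 0.10, against -0.03 for all probes. Over 45 subunit probes tested with HFCSD the median was 0.28, 36 being positive and 9 negative, against 0.04 for all probes, and partial-match probes had a median of -0.17. The subunit median was 0.17 both with the 75th percentile and with normexp, and with normexp that of partial-match probes was -0.08. ATP5I was at 13.47 ± 0.18 (SD, n = 3) with HFCSD, 13.33 ± 0.28 (SD, n = 4) with HFCD and 12.75 ± 0.41 (SD, n = 4) in control (A_72_P077116), and the HFCSD and control arrays did not overlap (adjusted p = 0.354). ATP5L, the g subunit next to it, was at 12.43 ± 0.63, 12.16 ± 0.29 and 11.70 ± 0.19 (SD) in the same groups. HFCSD against HFCD gave 0 of 93 members, beside 0% of 16277 probes. It gave 0 at an unadjusted p under 0.05 (1.55% of all probes) and 0 by the methods' t-test (36 of all probes). The member median there was 0.18, against 0.09 for all probes. Within 3 slides it was 0.11, 0.11 and 0.19, against -0.10, 0.09 and 0.19 for all probes. Of the control arrays, 3 were scanned on a day of their own. The fits with the scan day as a term thus set the diets against 1 control array. With the scan day as a term the median over all members was 0.09 for HFCD and 0.30 for HFCSD, against -0.03 and 0.06 without it. On the 1 slide that held HFCD and control, the median for HFCD was -0.01 over all members and -0.01 over the ATP synthase probes, against 0 for all probes. Of the T cell list, 11 of 11 probes tested had a positive difference from control with each diet, 6 of them at an unadjusted p under 0.05 and 0 called by limma; CD8B (A_72_P386268) differed by 0.85 and 0.92. Summed T cell levels, with CD3D the most abundant gene, were 14830, 6611, 7384 and 8650 with HFCD, 8291, 10570 and 9593 with HFCSD and 6512, 7635, 6860 and 7975 in control. The 5 platelet probes had negative differences with each diet and 0 calls, PF4, the most abundant, differing by -1.92 with HFCD and -0.55 with HFCSD. Platelet sums were 2931, 20560, 25360 and 3268 with HFCD, 20210, 7830 and 23760 with HFCSD and 19730, 23200, 25440 and 20890 in control. The part of these markers in the differences was not tested.

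At week 27, limma called 0 of 99 members for HFCD against control in WB, beside 0.0165% of 18188 probes, with 5 at an unadjusted p under 0.05 (5.55% of all probes) and 4 by the methods' t-test (278 of all probes). The median member change was -0.11, against -0.03 for all probes. Within 2 slides it was 0.01 and -0.13, against -0.005 and -0.07 for all probes. The platelet probes all had negative differences and were not called (ITGB3 -1.12 and PPBP -1.66, unadjusted p = 0.0202 and 0.0533 in limma). Platelet sums were 16150, 18780 and 13690 with HFCD and 26640, 27230, 34460 and 29800 in control. The part of platelets in this comparison was not tested. HFCSD against HFCD gave 0 of 99, beside 0.0111% of 18005 probes, with 12 at an unadjusted p under 0.05 (12.5% of all probes) and 1 by the methods' t-test (328 of all probes). Without HFCSD replicate 3 there was 1 call, given without the share of all probes.

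HFCSD against control in WB at week 27 was the diet comparison in which members were called: 6 were higher and 5 lower of 97 tested, beside 10.6% of 17135 probes (6.78% higher and 3.87% lower). A single subunit rose and another fell. SDHA (A_72_P161336) read 6.51, 6.73 and 5.78 with HFCSD and 4.60, 4.97, 4.64 and 4.96 with the control diet. The groups did not overlap, and the difference was 1.55 (SE 0.36; adjusted p = 0.028). With HFCD the arrays read 4.94, 6.30 and 5.02, of which 1 lay in the HFCSD range. SDHD, a membrane anchor of complex II, read 10.92, 11.14 and 11.35 with HFCSD and 12.16, 11.81, 11.72 and 11.78 with the control diet, and fell by 0.73 on the log2 scale (A_72_P113436; adjusted p = 0.0493). Each call rested on 1 of 2 probes: the second probes, which share 5 bases with the first, differed by 0.30 for SDHA (A_72_P380073) and -0.35 for SDHD (A_72_P177861) and were not called. ATP6V1E1, a stalk subunit of the vacuolar ATPase, read 11.25, 11.11 and 10.94 with HFCSD and 9.66, 9.53, 9.93 and 10.45 in control, 1.21 higher without overlap (adjusted p = 0.0238).

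The other 8 calls in this comparison were partial-match probes, 4 in each direction. Among them were A_72_P233282, 2.54 higher on the log2 scale (adjusted p = 0.0409), and A_72_P393808, above background on no HFCSD array, which was at least 2.86-fold lower (adjusted p = 0.0241). Such a bound sets the brighter group's mean against the mean, over the dimmer group's arrays, of the lowest signal counted as well above background or the probe's own signal, whichever was higher. The median change was -0.33 for members, -0.39 for partial-match probes and -0.21 for all probes. It was 0.03 for the 45 subunit probes, turning to -0.01 with the 75th percentile and -0.02 with normexp. ATP synthase probes had a positive median (0.29) and complex IV probes a negative one (-0.33) under each scaling, at 0.19 and -0.21 with normexp. With the 75th percentile, 4 members were higher and 6 lower.

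These calls rested on few arrays. The count of 11 members was 0, 0, 2 and 13 without control replicate 1, 2, 3 or 4, and 0, 0 and 13 without HFCSD replicate 1, 2 or 3, while the share of all probes called went from 10.6% to 0.554%, 1.26%, 0.921%, 14.5%, 0.6%, 0.683% and 12.9%. SDHA was not called without control replicate 1, 2 or 3 or HFCSD replicate 1 or 2 (adjusted p from 0.0608 to 0.0978), ATP6V1E1 not without the same arrays (0.0606 to 0.0873), and SDHD in no fit with 1 array left out except that without HFCSD replicate 3. Of the spots, 39.6%, 38.8% and 39.7% were well above background on the HFCSD arrays and 50.2%, 49.4%, 46.5% and 38.9% on the control arrays, and with this share as a covariate the count was 0 (SDHA 0.263, SDHD 0.33 and ATP6V1E1 0.236). Without the filter on dim probes SDHA (0.0678), SDHD (0.0722), ATP6V1E1 (0.0532), A_72_P233282 (0.101) and A_72_P393808 (0.0654) were not called. Within the slides, member medians were -0.20 (slide 11) and -0.36 (slide 12), against -0.24 and -0.25 for all probes. Of the pathway list, 2 of 36 probes tested rose and 0 fell, among them UCP2, an uncoupling protein of the inner membrane (1.34; adjusted p = 0.0241). The muscle gene DES rose by 2.04 (A_72_P177466; adjusted p = 0.0186), 1 of 3 skeletal muscle probes tested, while its other probe differed by 0.65 and TTN by -0.96 (adjusted p = 0.0624), neither called. Of the 22 muscle probes 11 were above background on no array, among them those of MYH2, MYL1, MYL2, TNNC2 and TNNT1. The summed muscle level, with DES the most abundant gene, was 2678, 2354 and 1687 with HFCSD and 760.5, 579.2, 704.8 and 964.3 in control. Of the blood cell markers limma called 0. The 5 platelet probes all had negative differences (PF4 -1.49 and ITGB3 -1.07, unadjusted p = 0.0226 and 0.0252), and their sums were 29260, 18090 and 4829 with HFCSD and 26640, 27230, 34460 and 29800 in control, with PF4 the most abundant. Both erythroid probes tested, of HBE1, had positive differences (0.65 and 1.00, unadjusted p = 0.0983 and 0.0279), with sums of 48360, 40610 and 28780 against 13100, 20320, 22380 and 41180. Of 10 T cell probes tested, 6 had a positive and 4 a negative difference (CD3E 1.36, unadjusted p = 0.0211), with sums of 5540, 6290 and 8047 against 7177, 7350, 8793 and 7238, CD3D being the most abundant. The part of these markers in the result was not tested.

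In WBC at week 27, limma called 0 members in the 3 comparisons of diets: 0 of 91 for HFCD against control (beside 0.0276% of 18126 probes), 0 of 99 for HFCSD against control (0.0366% of 19105) and 0 of 97 for HFCSD against HFCD (0% of 18799). Members at an unadjusted p under 0.05 numbered 1, 10 and 1, beside 4.73%, 11.3% and 2.17% of all probes, and the methods' t-test gave 1, 2 and 0 (118, 326 and 22 of all probes). Of 43 subunit probes tested with HFCD, 34 had a positive difference from control, and 0 were called. The subunit median was 0.17 with HFCD and 0.14 with HFCSD (47 tested), against 0.02 and 0.01 for all probes. Over all members it was 0.03 and 0.05. Within 3 slides the member medians were 0.09, 0.06 and 0.13 for HFCD, against 0.13, 0.01 and 0.02 for all probes. For HFCSD they were 0.05, 0.07 and 0.13, against -0.01, 0.07 and 0.05 for all probes. NDUFB4, an accessory subunit of complex I, had the lowest p of a named subunit between the diets, with 10.83 ± 0.15 (SD, n = 4) for HFCSD and 10.44 ± 0.33 (SD, n = 4) for HFCD (A_72_P374023; adjusted p = 1).

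The third question was how white blood cells differed from whole blood at week 27. Here large parts of the array were called. With the control diet, 22 members were higher in WBC and 17 lower of 98 tested, beside 45.3% of 19022 probes (24.4% higher and 20.9% lower); of 46 subunit probes 13 were higher and 3 lower (34.8%). With HFCD, 24 were higher and 19 lower of 101, beside 47.5% of 19414 probes (25.5% and 22%), and of 46 subunit probes 15 and 1 (34.8%). With HFCSD, 32 were higher and 19 lower of 102, beside 58.8% of 19689 probes (37.1% and 21.6%), and of 47 subunit probes 15 and 4 (40.4%). The median change of subunit probes was 0.24, 0.40 and 0.32, against 0.17, 0.19 and 0.42 for all probes. The 75th percentile moved the median of all probes to 0.30 (by 0.14) and 0.38 (by 0.19) with control and HFCD, and normexp moved that with HFCSD to 0.23 (by -0.19); the subunit medians with the 75th percentile were 0.50, 0.76 and 0.46, and that with HFCSD was 0.20 with normexp.

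Most called subunits of complexes II and IV and of ATP synthase were higher in WBC. Complex IV had 5 probes higher and 1 lower with the control diet, 4 and 0 with HFCD and 5 and 1 with HFCSD, and medians of 0.75, 0.76 and 0.71. COX6C (A_72_P122981) read 13.31, 13.76, 13.72 and 13.60 in control WBC against 12.57, 11.57, 13.19 and 13.53 in control WB, 0.88 higher with arrays of both kinds overlapping. With HFCD it read 13.81, 13.79, 13.58 and 13.75 against 12.72, 12.07 and 12.16, and with HFCSD 14.02, 13.92, 13.84 and 13.92 against 11.83, 12.65 and 12.44. There the WBC arrays lay above all WB arrays, by 1.41 and 1.62 in the mean. COX7C1 was higher by 1.02 (adjusted p = 0.0356), 1.57 (0.00452) and 1.48, with only 1 of its 2 probes called in each diet. In control pigs COX6C was not called without WB replicate 1 or 2 or WBC replicate 2 or 3, nor COX7C1 without WB replicate 1 or 2 or WBC replicate 2, 3 or 4, while with HFCD and HFCSD both kept their call with any array left out. COX7C1 was also not called in control pigs without the filter on dim probes (0.069).

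The complex II probes had medians of 0.70, 0.72 and 0.41 (with HFCSD 0.76 with the 75th percentile); 4, 2 and 2 of the 5 were called, each of these higher, and the others were not called. SDHA (A_72_P161336) read 6.58, 6.71, 6.71 and 6.77 in control WBC, all above the 4 WB arrays (4.60 to 4.97), a difference of 1.90 (SE 0.31; adjusted p = 5.97e-05). With HFCD it read 7.05, 6.29, 7.01 and 6.75 (1.36 higher), and with HFCSD 5.61, 6.85, 6.47 and 6.72, which overlapped the WB arrays at 6.51, 6.73 and 5.78 and was not called. SDHD was higher by 0.94 with the control diet, by 0.82 with HFCD and by 0.95 with HFCSD (A_72_P177861). With 1 array left out, the SDHD probe A_72_P177861 was not called in 1 of 8 fits with the control diet, 6 of 7 with HFCD and 1 of 7 with HFCSD. It was not called without the filter on dim probes with HFCD (adjusted p = 0.0626), nor with the covariate for bright spots with HFCSD (0.321). UQCRC1 of complex III had changes of 0.12, 0.29 and 0.14, or 0.44, 0.67 and 0.25 with the 75th percentile, and was not called.

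ATP synthase subunits went both ways. ATP5B, the catalytic beta subunit, read 3.77, 4.40, 4.93 and 4.83 in control WBC, 4.71, 4.67, 4.53 and 5.19 in HFCD WBC and 5.47, 4.46, 5.14 and 5.08 in HFCSD WBC. It was above background on all 12 of these arrays but on 1 of 4 control WB arrays and on no WB array of HFCD or HFCSD at week 27. It was 1.68 higher on the log2 scale with the control diet (adjusted p = 0.00113), at least 2.46-fold higher with HFCD (2.69e-05) and at least 1.68-fold higher with HFCSD (1.09e-06). No array left out ended these calls. The description gives the probe's transcript a match of 38% to a beta chain. ATP5C1, the gamma subunit of the rotor, was higher by 0.50, 0.67 and 0.79, and ATP5G2, a gene of the ring subunit c, by 0.92 with HFCD and 1.41 with HFCSD (A_72_P428859; not called with HFCD without WB replicate 2, adjusted p = 0.0534). The 4 probes of ATP5J2, the f subunit, disagreed: A_72_P383613 was higher by 1.20, 1.46 and 1.58, while A_72_P278004 and A_72_P077611 were lower with HFCSD, by -0.93 and -1.05, and the fourth was above background on no array. The ATP5J2 probes share 5 to 25 bases. A_72_P383613 kept its call with any array left out, whereas A_72_P077611 was not called without HFCSD WB replicate 1 or 2 and A_72_P278004 not in 5 of 7 such fits. With the percentage of bright spots on each array as a covariate, these lower probes changed by 0.17 (A_72_P278004) and 0.09, and A_72_P278004 was not called with the 75th percentile (adjusted p = 0.0608) or without the filter on dim probes (0.0658). ATP5C1 was not called in 6 of 8 fits with 1 array left out with the control diet, nor there without the filter (0.0597) or with the slide as a block (0.0515), nor without HFCD WB replicate 2. The median of the ATP synthase probes was 0.12 with the control diet (0.07 with normexp), -0.00 with HFCD and -0.14 with HFCSD; with HFCD it turned to 0.40 with the 75th percentile and 0.04 with normexp, and with HFCSD it was -0.00 with the 75th percentile.

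Complex I showed few calls (0 higher and 1 lower, 2 and 0, 2 and 1), and medians of -0.19, -0.07 and 0.09 that became 0.08, 0.30 and 0.38, 2 of them turning positive, with the 75th percentile. NDUFC1 was higher by 0.76 with HFCD and by 1.28 with HFCSD, with WBC arrays at 10.13, 10.08, 10.19 and 10.19 and WB arrays at 8.47, 8.85 and 9.28. NDUFB5, an accessory subunit, was lower by -0.98 with the control diet, and NDUFB8 by -0.53 with HFCSD. The complex IV gene COX6B also had a probe in each direction with HFCSD, A_72_P303339 1.04 higher and A_72_P260567 0.67 lower; the COX6B probes share 5 to 16 bases. COX6B2, the testis isoform, was lower by -0.72 with the control diet; its probe has a match of 22%. With 1 array left out, COX6B2 was not called in 4 of 8 fits, NDUFB5 not in 2 of 8 and NDUFB8 not in 5 of 7. With the 75th percentile COX6B2 (adjusted p = 0.188), NDUFB5 (0.0982), NDUFB8 (0.161) and COX6B A_72_P260567 (0.159) were not called. NDUFB8 was also not called without the filter on dim probes (0.0658), with the slide as a block (0.0535) or with the covariate for bright spots (0.515), nor COX6B A_72_P260567 with that covariate (0.348). COX6B A_72_P260567 was not called without HFCSD WB replicate 1 (adjusted p = 0.0838), nor NDUFC1 without HFCD WB replicate 2 (0.0769).

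Of the probes for subunits encoded by mitochondrial DNA, those of ND2 and ND6 were called. ND2, a core subunit of complex I, read 8.85, 9.12, 8.01 and 8.19 in control WBC and 7.06, 6.32, 7.52 and 7.96 in control WB. With HFCD it read 9.71, 7.95, 8.92 and 8.85 against 6.49, 7.33 and 6.90, and with HFCSD 8.60, 9.90, 9.24 and 8.04 against 7.73, 7.02 and 7.24. The WBC arrays lay above the WB arrays in each diet, by 1.33 (adjusted p = 0.0152), 1.95 (0.0019) and 1.62. ND6, encoded on the opposite strand, was lower in WBC by -0.99 with the control diet, from 7.90, 7.65, 7.37 and 7.51 in WB to 6.90, 6.63, 6.39 and 6.54, and by -1.19 with HFCD, and was not called with HFCSD. In control pigs ND2 was not called without WB replicate 2 (adjusted p = 0.0641) or WBC replicate 2 (0.0545). The matches of the ND2 and ND6 probes were 16% and 31%, the former within the range of the partial-match probes, so that the names rest on little. COX3 was above background on 1 array each of 2 WB groups, and ATP6 and COX2 on none. Of the partial-match probes, A_72_P065116 was higher in WBC by 1.73 (control diet) and 2.37 (HFCD) on the log2 scale. With HFCSD it was at least 3.50-fold higher. A_72_P233282 was lower in WBC with all diets, by 3.08, 4.15 and 4.99 on the log2 scale.

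Of the pathway list, 27 probes were called higher in WBC and 3 lower of 43 tested with the control diet. With HFCD these were 23 and 3 of 41, and with HFCSD 22 and 4 of 42. Of all probes, 24.4%, 25.5% and 37.1% were called higher and 20.9%, 22% and 21.6% lower. The list medians were 0.83, 0.81 and 0.76. TFAM, which packs and transcribes mitochondrial DNA, was higher by 0.99, 1.27 and 1.76. Of 4 probes of CS, the first enzyme of the citric acid cycle, 3, 2 and 1 were called, each of these higher, whereas the brightest (A_72_P072591) differed by -0.12, -0.15 and -0.21 and was not called. The brighter CPT1A probe (A_72_P403023) differed by 0.32, 0.45 and 0.52 and was not called, and the other was called as higher in each diet. ATPIF1 was lower in all 3 diets, by -2.81, -2.57 and -2.08 (A_72_P122401) and by -2.55, -2.20 and -1.95 (A_72_P010916). The summed level of the list, in which ATPIF1 is the most abundant gene, was lower on most WBC arrays, at 67160 to 156200 against 142100 to 267600 on the WB arrays of week 27.

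Cell markers also differed between the sample types. Of 12 T cell probes tested, 9, 6 and 9 were called higher in WBC with the control diet, HFCD and HFCSD, and 0 were called lower. Monocyte probes were higher in 3 of 8, 1 of 7 and 2 of 7, with CD163 among them in each diet, and FCGR3B of the neutrophil list was higher by 0.60 with HFCD and 0.81 with HFCSD. DES was lower by -1.02 with HFCD and -2.65 with HFCSD (A_72_P177466), while its other probe (A_72_P209552; 0.27 and -0.71) and TTN (-0.28 and -0.20) were not called. The erythroid list, of which only 2 probes of HBE1, its most abundant gene, were tested, had medians of -1.38, -2.07 and -2.22 with 0 called, and the platelet list had 0 of 5 called. Liver markers were near absent, 13 of 17 probes being above background on no array, ALB, APOB, FGG, TTR, AMBP and CYP2E1 among them. T cell sums were 12070, 11500, 13180 and 7492 in control WBC, 12800, 15980, 9854 and 9006 with HFCD and 11410, 15740, 11590 and 12550 with HFCSD. The kit and the scan day differ with the sample type, so these cannot be told apart from it, and the part of the cell markers was not tested.

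The diet changes in WBC and WB were set against each other at week 27. For HFCSD, 2 of 104 members were called, both lower, beside 1.38% of 20379 probes: SDHA (A_72_P161336), whose change from control was 1.83 lower in WBC than in WB (difference -1.83; adjusted p = 0.0485), and ATP6V1E1 (difference -1.41; adjusted p = 0.0266). ATP6V1E1 read 10.05, 10.46, 10.47 and 10.16 in HFCSD WBC and 10.25 to 10.72 in control WBC, groups that overlapped, whereas the WB groups did not. SDHA was not called in 12 of the fits with 1 array left out and ATP6V1E1 not in 9. Neither was called with the 75th percentile (adjusted p = 0.0591 and 0.055) or with the covariate for bright spots (0.285 and 0.2), nor SDHA without the filter on dim probes (0.072). With the replicate number as a block the count of called members was 0. At an unadjusted p under 0.05 there were 20 members, beside 19.2% of all probes. The count of 2 went to 0 without WB control replicate 1, 2 or 3, WB HFCSD replicate 1 or 2, WBC control replicate 2 or 4 or WBC HFCSD replicate 1 or 4, to 1 without WBC control replicate 3 or WBC HFCSD replicate 3, to 4 without WB HFCSD replicate 3 and to 6 without WB control replicate 4. Without the share of all probes in the same fits, such counts cannot set the members apart from the array. For HFCD, 0 of 102 were called by limma, beside 0% of 20072 probes, and 0 had an unadjusted p under 0.05, beside 1.33% of all probes.

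Of the WBC arrays, a few stood apart in the complex IV subunits COX8H and COX7A2 and the assembly factor COX11. COX11 read 6.11, 11.19, 10.60 and 10.39 in control WBC, 10.13, 5.50, 8.79 and 10.33 with HFCD and 10.18, 10.36, 8.06 and 7.08 with HFCSD. COX8H (A_72_P393483) read 2.27, 7.71, 8.94 and 8.63, then 7.31, 1.61, 6.59 and 8.58, and then 8.40, 7.0, 5.63 and 5.18, and COX7A2 10.88, 13.69, 13.76 and 13.61, then 12.95, 11.53, 12.41 and 13.61, and then 13.22, 12.86, 12.09 and 11.91. Control replicate 1 and HFCD replicate 2 were the lowest arrays of their groups for all 3 genes, which were called in no comparison of WBC with WB or between diets in WBC. The summed platelet level, of which PF4 is the most abundant gene, was 2153, 54600, 60530 and 76800 in control WBC, 34760, 1018, 17320 and 49070 with HFCD and 51420, 41810, 11380 and 7566 with HFCSD, lowest on the same 2 arrays. The summed erythroid level was also lowest there, at 428.1 and 451.3, against 3407 to 28210 on the other WBC arrays. In WB, HFCSD replicate 3 at week 27 had a platelet sum of 4829, against 29260 and 18090 in its group, with COX8H at 1.59, against 6.56 and 5.90. The part of platelets in these levels was not tested. Without the 2 WBC arrays, an alternative chosen after seeing the data, the members called between WBC and WB numbered 46, 49 and 54 with the control diet, HFCD and HFCSD, in place of 39, 43 and 51, beside 45.7%, 45% and 61.5% of all probes in place of 45.3%, 47.5% and 58.8%, and 0 in the comparisons of diets. Calls that ended were, among others, those of ATP5C1 (adjusted p = 0.088) with the control diet and SDHD A_72_P177861 (0.0719) with HFCD.

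Of the other subunits set out for description, some were called in WBC against WB. SDHB, the iron-sulfur subunit of complex II, had group means of 12.07 to 12.50 over the 12 groups and UQCRC1 of 12.37 to 13.04, and neither was called in any comparison. NDUFA4, an accessory subunit counted with complex I by its name, had means of 10.14 to 11.20 (A_72_P088776) and 10.66 to 11.54 (A_72_P041381), highest in WBC with HFCD. The former was higher in WBC by 0.48 with HFCD (adjusted p = 0.0398) and by 0.56 with HFCSD (adjusted p = 0.0139); with 1 array left out it was not called in 6 of 7 fits with HFCD, nor there with normexp (0.117), nor without HFCSD WB replicate 1 (0.0691). COX5A, a nuclear subunit of complex IV, had means of 7.95 to 9.06, and ATP5O, the stalk subunit that binds the catalytic head, of 9.33 to 10.71 (A_72_P178181). ATP5O was higher in WBC by 0.77 with HFCD (adjusted p = 0.0223), and was not called without WB replicate 1 (0.0577) or 2 (0.0748). The tissue isoforms COX7A1 and COX7A2 were above background in every group. So were COX6B2 and the subunit c genes ATP5G1 (11.52 to 12.11) and ATP5G2, whereas the COX8H probes were not above background on each array. NDUFS1, the largest subunit of complex I, was above background on no array.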

How the data were processed

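RNA of 45 blood samples in 12 groups was measured on 45 1-colour Agilent arrays on 16 slides, scanned on 5 days. Each array has 45220 spots, 1417 of them controls, and 43603 probes. The authors' processed intensity values, background-subtracted by Feature Extraction, were read from the deposited array files (version 9.5.3.1 per the labels, 10.5.1.1 per the file headers). Spots with an outlier mark (1 to 31 an array) were left out, and the log2 values were brought to 1 distribution by quantile normalization of the 45 arrays, then averaged over the spots of a probe. A probe was tested in a comparison when it was well above background on every usable array of at least 1 group compared, with at least 2 usable arrays in each group. No member spot was saturated. Signal well above background came from 15494 to 23344 spots an array.

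The 18 comparisons and 4 differences of changes were fitted over all probes with limma 3.58.1 in R 4.3.3 (lmFit and eBayes, two-sided, Benjamini-Hochberg; called at an adjusted p under 0.05) and with the R package data.table (version 1.17.8). Python 3.11.15 with numpy 2.4.6 and pandas 2.3.3 read the annotation. The fit was tested on simulated data. Outside limma, a Student's t-test was run with the paper's thresholds, a fold of over 2 and an unadjusted p under 0.05. It is called the methods' t-test. Its values and presence filter were those of the limma fits, whereas the paper kept spots whose signal was not below background. The version with Benjamini-Hochberg is not in the paper. Dixon's outlier test at the 5% level looked for single arrays apart from the others in groups of 4.

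Named in the text by rule were, in a comparison, at most 4 called members with the largest rises and 4 with the largest falls that did not overlap, or, where none was called, at most 2 with the lowest unadjusted p. The rule adds core subunits, tissue isoforms, mitochondrially encoded members and genes whose probes differ in direction. Members named beyond this rule (COX15, COX6C, COX7C1, SDHD, ATP6V1E1, ATP5L and ATP5J2 in some comparisons) were singled out after their values were seen. Members, pathway list and marker lists were chosen with earlier results of these data known. The pigs of a diet were sampled over the weeks and for both sample types, and a diet had few more pigs than a group has arrays, so the groups of a diet share pigs. The labels tie no replicate number to an animal, so samples were treated as unpaired, and repeated samples of a pig as independent. Alternatives were scaling by the 75th percentile, normexp background (offset 50), the series table as deposited, filters, slide, scan day, replicate number, the share of spots well above background, and each array left out. Partial-match probes are named by probe identifier only.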

Additional observations from a re-analysis of the deposited data

Results flagged for a closer look

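Arrays far from the others of their group of 4 were looked for with Dixon's test in 270 groups, and 15 were found, near the share of about 1 in 20 groups that chance gives. In HFCD whole blood at 19 weeks, replicate 1 lay apart in the median of the subunit probes (11.92, others 11.13 to 11.15) and in NDUFA4 (A_72_P041381, the probe at that median, so with the same value, 11.92), NDUFC1 (10.03, others 8.75 to 8.93) and COX7A1 (A_72_P245162, 8.38, others 8.83 to 8.92). On this array the summed erythroid level was 6500 (others 32030 to 35940), the T cell sum 14830 (6611 to 8650), the muscle sum 371.1 (1754 to 2631) and the platelet sum 2931 (3268 to 25360). In control white blood cells, replicate 1 lay apart in COX11 (6.11, others 10.39 to 11.19), COX7A2 (10.88, others 13.61 to 13.76) and COX8H (A_72_P058546, 2.88, others 8.38 to 9.47), and its platelet sum was 2153, others 54600 to 76800. Whether cell content or handling differed on these 2 arrays was not tested.

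Other arrays apart from their group were HFCSD white blood cells replicate 2 in NDUFB4 (10.60, others 10.89 to 10.92) and replicate 1 in COX7A1 (A_72_P303109, 8.01, others 7.51 to 7.57). In HFCD white blood cells, replicate 4 was apart in COX7C1 (12.43, others 11.83 to 11.93) and ND6 (6.82, others 6.28 to 6.33). In whole blood, control replicate 3 at 27 weeks was apart in SDHB (12.14, others 12.43 to 12.48) and HFCD replicate 4 at 10 weeks in COX7A2 (10.71, others 11.34 to 11.47). COX8H (A_72_P058546) was apart on HFCSD replicate 2 at 10 weeks (7.20, others 5.84 to 6.05) and on control replicate 1 at 19 weeks (4.82, others 6.59 to 6.85).

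The change with HFCSD from control at 27 weeks was called as different between white blood cells and whole blood for SDHA (A_72_P161336, difference -1.83) and ATP6V1E1 (difference -1.41). These were 2 of 104 members (1.92%), beside 1.38% of all probes. Neither was called with the 75th percentile, with the covariate for bright spots or with the replicate number as a block.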

How the results depend on the processing

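Of 116 called values of named members, the series table changed 0 calls, normexp ended 8, the 75th percentile 12, the slide as a block 14, a covariate for each array's percentage of spots well above background 31 and no filter 32. With that covariate, ATP5J2 in WBC against WB with HFCSD turned from a fall to 0.0905 (A_72_P077611) and 0.1662 (A_72_P278004). The cause was not tested.

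Between weeks 10 and 27 in control WB, 21 members were called, 13 with only probes above background on every array, 13 by the methods' t-test with fold (2544 of all probes) and 10 by it after Benjamini-Hochberg (1274). With HFCD 7 were called, 2 with no filter, 3 with the slide as a block and 1 by the methods' t-test after adjustment (162 of all probes); with HFCSD 7, 11 with the 75th percentile, 4 with no filter, 3 with the covariate and 4 by the adjusted methods' t-test (1005). For the difference of HFCSD changes between WBC and WB (2 called) the count was 0 with the 75th percentile, 6 with normexp, 1 with no filter and 0 with the covariate. HFCSD against control in WB at 27 weeks (11 called) gave 2 with no filter, 0 with the covariate and 1 by the adjusted methods' t-test (142). WBC against WB gave 25 (control) and 33 (HFCSD) on probes above background on every array, 22 and 32 by the methods' t-test with fold (5816 and 8156 of all probes), 25 for control after adjustment (6415) and 33 for HFCSD with the covariate. Except for the t-tests, these counts stand without the share of all probes under the same alternative. They thus cannot set the members apart from the array. Where limma called 0, the methods' t-test with fold gave 2, 2, 4 and 1 for HFCD against control (WB at 10, 19 and 27 weeks, WBC), 2 and 2 for HFCSD against control (WB at 19 weeks, WBC) and 1 and 1 for HFCSD against HFCD (WB at 10 and 27 weeks), beside 306, 548, 278 and 118, 886 and 326, and 107 and 328 of all probes. The cause was not tested.

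Member medians at 19 weeks were 0.0892 (HFCD) and 0.2960 (HFCSD) with the scan day as a term, against -0.0327 and 0.0566. For HFCSD against control in WB at 27 weeks the median was -0.1256 with normexp and -0.0684 with no filter, against -0.3275; for WBC against WB 0.2728 with the 75th percentile (control, against 0.0835) and -0.0231 with no filter (HFCSD, against 0.2096).

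With each array left out, counts ranged over 14 to 23, 0 to 5 and 2 to 7 for weeks 27 against 10 (control, HFCD, HFCSD), 0 to 13 for HFCSD against control and 0 to 1 for HFCSD against HFCD in WB at 27 weeks, 0 to 6 for the difference of HFCSD changes, and 27 to 43, 33 to 43 and 37 to 50 for WBC against WB. In all others they stayed at 0. These ranges stand without the share of all probes in the same fits, and cannot set the members apart from the array. Member medians ranged over 0.2290 to 0.2802, 0.0913 to 0.1871 and -0.0418 to 0.2151 for weeks 27 against 10; 0.0042 to 0.0715, -0.1809 to 0.0220 and -0.1312 to -0.0496 for HFCD against control in WB at 10, 19 and 27 weeks; -0.0524 to 0.0298, -0.0157 to 0.1723 and -0.3434 to -0.1626 for HFCSD against control; -0.1233 to -0.0308, 0.0639 to 0.2680 and -0.1737 to -0.0643 for HFCSD against HFCD; -0.0164 to 0.0987, 0.0055 to 0.0979 and -0.0061 to 0.0447 for these in WBC; and -0.0062 to 0.1485, 0.0376 to 0.2144 and 0.1721 to 0.3204 for WBC against WB.

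Same-numbered arrays were not taken as paired: of 48 pairs of groups, 3 had every same-number correlation over 0.1, 1 of them within a diet (HFCSD, weeks 19 and 27). Within the control diet, HFCD and HFCSD, the median same-number correlation exceeded that of other numbers in 4, 3 and 4 of 4 pairs of groups, up to 0.34, 0.46 and 0.28, but every array correlated best with its own number in 0. Whether a number stands for 1 pig was left unknown by the labels. A replicate block gave 3 called members for weeks 27 against 10 with HFCSD and 0 for the difference of HFCSD changes, and changed 25 calls of named members. Signal over background limits what is said of dim probes such as ATP5B, and groups of 3 or 4 arrays limit all tests.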
